A study of Mus musculus with 12 samples.

Results

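The genes described here are 10 targets of YAP and its DNA-binding partners of the TEAD family that are well known from differentiated and cancer cells, namely Ctgf, Cyr61, Ankrd1, Axl, Myof, Nt5e, Nuak2, Gadd45a, F3 and Crim1. They were chosen by name, as members of a published signature of 22 YAP/TAZ target genes, with earlier results of these data known. They were matched by symbol among the 24480 genes of each expression table. The question was which of them responded in mouse embryonic stem cells (ESCs) to loss of YAP, to gain of YAP or to both, and how high they stood in control cells. RNA was sequenced from the feeder-free E14Tg2a line in the pluripotent state, kept in serum with leukemia inhibitory factor (LIF), in 12 libraries that form 4 groups of 3. CTR KD cells were transiently transfected with scrambled siRNAs and YAP KD cells with a mix of siRNAs against Yap1. CTR OE cells received a plasmid that expresses GFP according to the labels, whereas the study's text calls it an empty vector, and YAP OE cells received wild-type mouse YAP under the CAG promoter. All cells carried the endogenous Yap1 gene. Because transfection was transient and RNA came from bulk cultures, a change in a share of the cells and a change in every cell cannot be told apart.

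YAP is a transcriptional coactivator that does not bind DNA itself. When the Hippo kinases MST and LATS are inactive, YAP enters the nucleus, binds TEAD factors and activates genes for matrix-associated ligands, surface proteins, cytoskeletal proteins and its own inhibitors. In adherent differentiated cells, Ctgf and Cyr61 are the customary readouts of this activity.

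Promoter sequence from RefSeq (GRCm38.p6) was read for 8 of the 10 genes, all but Ctgf and Nuak2, over 250 bases before and 50 bases after each transcription start. It was searched on both strands for GGAATG, the core bound by TEAD factors, and for TGANTCA, the site of AP-1, a factor that often binds near TEAD. The letters of the TEAD core were present in 4 of the 8 windows (Cyr61, Ankrd1, Axl and Crim1), against 14.7% of 32851 mouse promoters of the same length. The AP-1 letters were present in 1 of the 8, F3, against 7.81% of all promoters. F3 held no TEAD core, so none of these windows held both motifs. The windows of the 3 genes below that changed in ESCs and had an entry are printed with that of Ankrd1, which held 2 matches to the TEAD core, with that core in capitals. Each is written 5′ to 3′ along the gene.
Cyr61, chr3:145649936-145650235, minus strand: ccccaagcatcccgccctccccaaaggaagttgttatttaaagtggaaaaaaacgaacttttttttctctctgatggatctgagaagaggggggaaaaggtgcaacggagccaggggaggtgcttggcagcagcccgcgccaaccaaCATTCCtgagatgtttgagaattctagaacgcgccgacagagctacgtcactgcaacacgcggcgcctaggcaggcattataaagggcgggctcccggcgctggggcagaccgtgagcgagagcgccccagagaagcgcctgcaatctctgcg
Ankrd1, chr19:36119795-36120094, minus strand: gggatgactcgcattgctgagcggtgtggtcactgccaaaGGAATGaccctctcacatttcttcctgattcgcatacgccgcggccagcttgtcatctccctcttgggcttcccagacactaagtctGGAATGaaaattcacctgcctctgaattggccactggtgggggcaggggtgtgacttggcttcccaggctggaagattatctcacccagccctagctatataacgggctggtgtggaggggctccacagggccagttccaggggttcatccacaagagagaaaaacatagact
Myof, chr19:38043528-38043827, minus strand: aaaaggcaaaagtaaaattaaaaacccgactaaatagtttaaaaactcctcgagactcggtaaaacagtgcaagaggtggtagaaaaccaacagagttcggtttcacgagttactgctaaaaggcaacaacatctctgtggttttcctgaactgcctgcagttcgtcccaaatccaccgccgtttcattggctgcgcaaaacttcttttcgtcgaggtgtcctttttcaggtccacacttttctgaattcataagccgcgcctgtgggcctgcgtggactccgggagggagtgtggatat
Nt5e, chr9:88327359-88327658, plus strand: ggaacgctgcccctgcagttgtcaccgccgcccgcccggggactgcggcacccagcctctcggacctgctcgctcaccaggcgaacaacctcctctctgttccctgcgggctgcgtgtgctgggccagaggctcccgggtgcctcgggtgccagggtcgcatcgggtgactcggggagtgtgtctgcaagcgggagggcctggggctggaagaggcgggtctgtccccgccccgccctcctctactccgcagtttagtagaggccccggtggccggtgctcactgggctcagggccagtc
In Cyr61 the core lay on the reverse strand, starting 103 bases before the start site. Ankrd1 carried it at 210 and 123 bases before its start. Myof and Nt5e had no match in this window, which says nothing of sites elsewhere.

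The libraries held 42900000 to 57200000 expected counts. Yap1 itself was at 116, 135 and 125 CPM (expected counts relative to library size, scaled by TMM factors) in CTR KD and at 58.5, 54.9 and 56.6 CPM in YAP KD. It was at 134, 130 and 134 CPM in CTR OE and at 277, 256 and 244 CPM in YAP OE. Thus Yap1 counts were at 45.2% of control after knockdown and at 195% of control after overexpression. In the overexpression, reads of the plasmid and of the endogenous gene were counted together. The plasmid carried the YAP coding sequence, whereas the gene length used was 4140.2 to 4165.8 bases. The 195% is therefore a value of reads and does not give the rise in transcript number. The 8 ESC markers stood between 30.7 CPM per kb (Klf4) and 4370 CPM per kb (Dppa5a) in controls. Of these, 0 passed the edgeR quasi-likelihood test in either experiment (0 with DESeq2). Over all genes 5.49% passed in the knockdown and 2.13% in the overexpression, so a count of 0 in so short a list is near these shares. At an unadjusted p under 0.05 there were 4 in the knockdown, all lower in YAP KD (log2 fold changes -0.131 to -0.155), and 1 in the overexpression. The 10 fibroblast markers, cells in which these targets are strongly used, summed to 7.29 to 8.6 CPM for CTR KD, 8.05 to 9.18 CPM with YAP KD, 8.53 to 10.2 CPM in CTR OE and 9.05 to 10.9 CPM in YAP OE. Of these, Lum was at 0 in all control libraries. Beside the same shares over all genes, 0 of the 7 fibroblast markers tested passed in either experiment (2 and 1 at an unadjusted p under 0.05, and 0 with DESeq2).

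All 10 targets were detected in undifferentiated ESCs, at very different levels. Control levels are given in CPM per kilobase of effective length (CPM per kb), averaged over the 6 control libraries, so that genes of different length can be compared. Gadd45a, a small stress-response protein, was highest at 37.4 CPM per kb, above 86.1% of the 15049 genes kept in a fit over all libraries. Ctgf followed at 10.8 and Myof at 9.18 CPM per kb, both above the median of 5.66 CPM per kb over all genes kept. The other 7 targets stood below that median. F3 was at 5.2, Cyr61 at 3.97 and Nuak2 at 3.78 CPM per kb. Crim1 was at 1.26, Axl at 0.512, Nt5e at 0.354 and Ankrd1 at 0.24 CPM per kb. Ankrd1 was thus 156-fold below Gadd45a, and only 11.4% of the genes kept were lower.

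**Figure D1:**
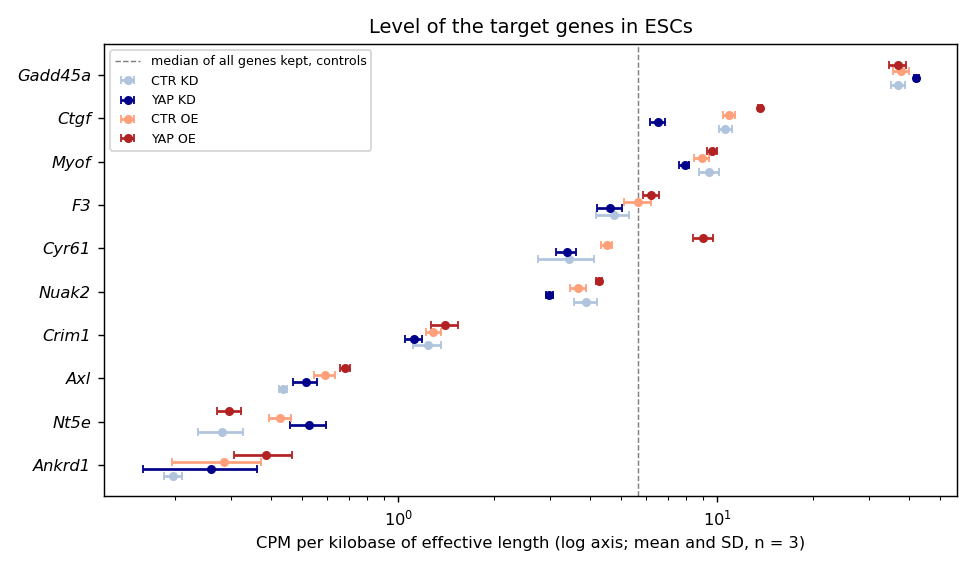
Level of each target gene in CPM per kilobase of effective length (log axis), as mean and SD of 3 libraries for each of the 4 groups. The dashed line marks the median of all genes kept, 5.66 CPM per kb in controls. Averaged over both control groups, only Gadd45a, Ctgf and Myof lie above it, and in YAP OE the means of Cyr61 and F3, 9.02 and 6.22 CPM per kb, lie above it as well.

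Neighbours in the order of control levels overlapped in a few groups, Nuak2 and Cyr61 in CTR KD, Nt5e and Axl in YAP KD, and Ankrd1 and Nt5e in YAP OE. Of the neighbours that did not overlap, 2 pairs stood in the reverse order in 1 group. Ctgf lay below Myof in YAP KD, at 6.52 against 7.9 CPM per kb, and Cyr61 lay above F3 in YAP OE, at 9.02 against 6.22 CPM per kb. The precision follows the level, as Ankrd1 rested on 14 to 42 counts per library and Nt5e on 37 to 109, whereas Myof had 2315 to 3663. Expected counts of Gadd45a were not whole numbers in any of the 12 libraries, so some of its reads were shared with another gene and its values are less certain. For Crim1 this held in 2 libraries, and for the other 8 targets in none.

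The knockdown moved 4 of the 10 targets past an adjusted p of 0.05 by edgeR's quasi-likelihood test with Benjamini-Hochberg adjustment over all genes tested, against 5.49% of 14606 genes. Ctgf, Nuak2 and Myof fell, that is 3 of 10 against 2.78% of all genes, and Nt5e rose, 1 of 10 against 2.71%. The overexpression moved 2 of the 10, against 2.13% of 14804 genes. Both Ctgf and Cyr61 rose, against 1.66% of all genes, and 0 of 10 fell, against 0.473% (1, Nt5e, at an unadjusted p under 0.05, and 0 with DESeq2). Only Ctgf passed in both experiments, falling on loss and rising on gain as 0.551% of 14521 genes did. All 10 targets passed the filter on low counts in both experiments. The median log2 fold change over the 10 was -0.04 after knockdown and 0.18 after overexpression, beside 0.0058 and -0.00249 over all genes tested.

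**Figure D2:**
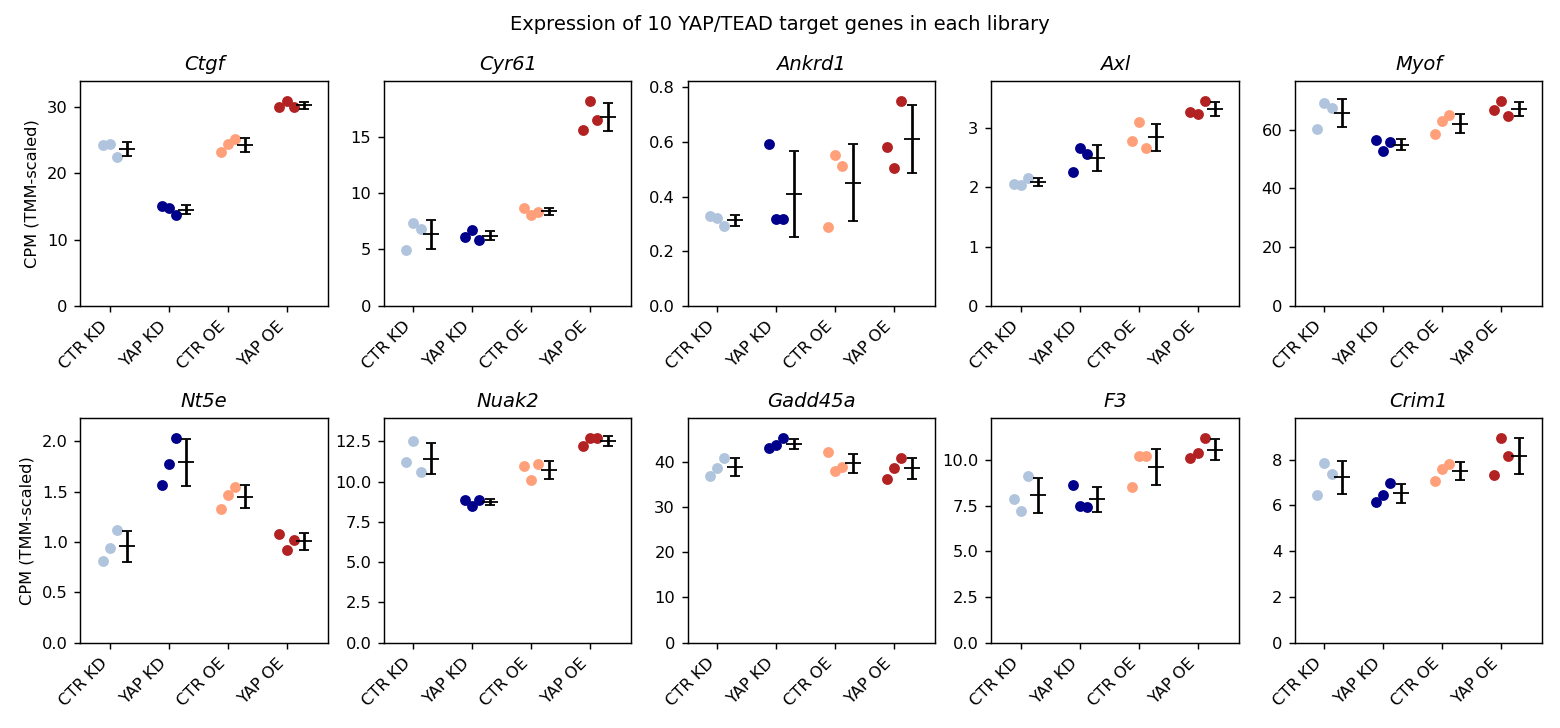
CPM of each target gene in the 12 libraries, 3 per group, with the group mean and SD in black beside the points. Each panel starts at 0 and has its own scale. Ctgf is lowest in YAP KD and highest in YAP OE, and Cyr61 is raised in YAP OE alone. Nt5e is higher in YAP KD and lower in YAP OE than in the control group of the same experiment. Its fall in YAP OE did not pass, and its YAP OE points lie within the range of CTR KD.

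In 6 of the 10 targets, the 3 YAP KD libraries all lay on 1 side of the 3 CTR KD libraries, as was the case for 25.7% of all genes. Ctgf, Myof and Nuak2 were on the lower side, and Axl, Nt5e and Gadd45a on the higher side. In the overexpression 5 of the 10 were separated, against 18.2% of all genes, with Ctgf, Cyr61, Axl and Nuak2 higher and Nt5e lower in YAP OE.

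Ctgf (chr10:24595442-24598683), which encodes the secreted matricellular protein CCN2, passed in both experiments. It was at 24.2, 24.4 and 22.4 CPM in CTR KD and at 15.0, 14.8 and 13.7 CPM in YAP KD. It was at 23.2, 24.4 and 25.2 CPM in CTR OE and at 29.9, 30.8 and 29.9 CPM in YAP OE. The control groups overlapped, every YAP KD library lay below all control libraries and every YAP OE library above them. After knockdown Ctgf was at 61.3% of control, a log2 fold change of -0.71 (SE 0.0585, edgeR quasi-likelihood, adjusted p = 0.000221). After overexpression it was at 124% of control, a log2 fold change of 0.32 (SE 0.0462, edgeR quasi-likelihood, adjusted p = 0.0015).

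Cyr61 (chr3:145646971-145649985) encodes CCN1, the other CCN ligand of the set, and rose on gain of YAP. It was at 4.92, 7.38 and 6.77 CPM in CTR KD and at 6.10, 6.73 and 5.88 CPM in YAP KD, so the groups overlapped. In CTR OE it was at 8.69, 8.04 and 8.36 CPM, and in YAP OE at 15.6, 18.1 and 16.5 CPM. The overexpression groups were far apart, and Cyr61 reached 200% of control, a log2 fold change of 1.00 (SE 0.0668, edgeR quasi-likelihood, adjusted p = 1.18e-06). The knockdown gave a log2 value of -0.03 (SE 0.134, edgeR quasi-likelihood, adjusted p = 0.933). Its 95% interval ran from 0.794-fold to 1.2-fold, so a fall of the size seen for Ctgf lay outside the interval. The CTR KD libraries spread widely, and the sign of this small value changed when CTR KD replicate 2 (0.09), CTR KD replicate 3 (0.01) or YAP KD replicate 3 (0.01) was left out. The integrins Itgav, Itgb3 and Itgb5, which serve as receptors of both CCN proteins, passed the test in neither experiment.

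Among the surface proteins, Nt5e (chr9:88327609-88372089) ran against the direction of a YAP-activated gene. It encodes CD73, the enzyme that turns extracellular AMP into adenosine. It was at 0.812, 0.943 and 1.12 CPM in CTR KD and at 1.57, 1.77 and 2.03 CPM in YAP KD. It was at 1.33, 1.47 and 1.55 CPM in CTR OE and at 1.08, 0.915 and 1.02 CPM in YAP OE. Every YAP KD library was above every CTR KD library, and every YAP OE library was below every CTR OE library. The YAP OE libraries lay within the range of CTR KD, however, and every CTR OE library lay above that range. Nt5e rose to 187% of control after knockdown, a log2 fold change of 0.91 (SE 0.169, edgeR quasi-likelihood, adjusted p = 0.0144). After overexpression it stood at 69.2% of control, a log2 fold change of -0.53 (SE 0.154) that did not pass (edgeR quasi-likelihood, adjusted p = 0.109, 95% interval 0.554-fold to 0.873-fold). The call after knockdown was lost without YAP KD replicate 2 (0.92) or YAP KD replicate 3 (0.80). Of the adenosine receptors listed, Adora1, Adora2a and Adora2b, the last was abundant enough to be tested, and it passed in neither experiment.

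Axl, a receptor tyrosine kinase of the TAM family, lay higher in both YAP groups than in their controls, without passing the test. It was at 2.06, 2.04 and 2.16 CPM in CTR KD and at 2.25, 2.66 and 2.56 CPM in YAP KD. It was at 2.78, 3.09 and 2.65 CPM in CTR OE and at 3.27, 3.23 and 3.44 CPM in YAP OE. The groups did not overlap in either experiment, yet the higher value followed loss and gain alike. The log2 fold changes were 0.26 (SE 0.113) after knockdown and 0.23 (SE 0.105) after overexpression (edgeR quasi-likelihood, adjusted p = 0.235 and 0.371). The ligands of Axl, Gas6 and Pros1, and the related receptors Tyro3 and Mertk did not pass in either experiment.

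The remaining surface proteins were F3, the tissue factor that starts blood coagulation, and Crim1, a transmembrane protein that binds bone morphogenetic proteins. F3 ranged from 7.23 to 11.2 CPM and Crim1 from 6.17 to 8.94 CPM over the 12 libraries, and YAP and control libraries overlapped in both experiments. For F3 the 95% interval of the fold change was 0.834 to 1.13 after knockdown and 0.981 to 1.23 after overexpression. For Crim1 it was 0.788 to 1.04 and 0.961 to 1.23. Changes of the size of the fall of Ctgf lay outside these intervals. Of the partners of F3, Tfpi, an inhibitor of the coagulation step that F3 starts, rose after overexpression by a log2 fold change of 0.20 (SE 0.0439, edgeR quasi-likelihood, adjusted p = 0.0241). Tfpi was the only 1 of 10 tested partners of the targets to pass in the overexpression, against 2.13% of all genes. In the knockdown 0 of 10 passed, against 5.49% of all genes (1 at an unadjusted p under 0.05, and 0 with DESeq2).

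Myof, a ferlin that takes part in membrane repair, was an abundant target that fell modestly. It was at 60.1, 69.1 and 67.5 CPM in CTR KD and at 56.4, 52.7 and 55.7 CPM in YAP KD. It was at 58.4, 63.0 and 64.9 CPM in CTR OE and at 66.6, 69.6 and 64.7 CPM in YAP OE. The knockdown groups were separated, whereas 1 YAP OE library lay within the control range. Myof was at 83.8% of control after knockdown (log2 fold change -0.25, SE 0.0566, edgeR quasi-likelihood, adjusted p = 0.0316) and at 108% after overexpression (0.11, SE 0.0456, adjusted p = 0.307). Without CTR OE replicate 1 the value after overexpression was 0.06. The call after knockdown was lost without CTR KD replicate 3 (-0.23), YAP KD replicate 1 (-0.27), YAP KD replicate 2 (-0.23) or YAP KD replicate 3 (-0.27). It was also lost with the replicate number fitted as a block (-0.25). Its relative Dysf did not pass in either experiment.

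Nuak2, a kinase related to AMPK, fell on loss of YAP. It was at 11.2, 12.5 and 10.6 CPM in CTR KD and at 8.85, 8.51 and 8.86 CPM in YAP KD. It was at 11.0, 10.1 and 11.1 CPM in CTR OE and at 12.2, 12.7 and 12.7 CPM in YAP OE. Neither pair of groups overlapped. Nuak2 fell to 76.5% of control after knockdown (log2 fold change -0.39, SE 0.0728, edgeR quasi-likelihood, adjusted p = 0.0157) and stood at 116% after overexpression (0.22, SE 0.0612, adjusted p = 0.0905). The call after knockdown was lost without YAP KD replicate 1 (-0.40), YAP KD replicate 2 (-0.37) or YAP KD replicate 3 (-0.40). It was also lost with the replicate number fitted as a block (-0.38). The related kinase Nuak1 rose after overexpression, by a log2 fold change of 0.43 (SE 0.0665, edgeR quasi-likelihood, adjusted p = 0.00229). It was the only 1 of 9 tested paralogues of the targets to do so, against 1.66% of all genes. In the knockdown 0 of 9 paralogues passed, against 5.49% of all genes (2 at an unadjusted p under 0.05, and 0 with DESeq2).

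Gadd45a, which is induced by DNA damage and other stress, ranged from 36.8 to 40.9 CPM in CTR KD, against 43.1 to 45.2 CPM in YAP KD. The groups did not overlap, but the log2 fold change of 0.18 (SE 0.0489) missed the threshold (edgeR quasi-likelihood, adjusted p = 0.0622). With YAP overexpressed it was at 38.0 to 42.1 CPM in CTR OE and 36.1 to 40.8 CPM in YAP OE, with a log2 fold change of -0.04 (SE 0.0523). Of 10 targets of p53, which also controls Gadd45a, Phlda3 (-0.47) and Zmat3 (-0.22) fell in the knockdown, against 2.78% of all genes. In the overexpression 0 passed, against 2.13% of all genes (2 at an unadjusted p under 0.05, and 0 with DESeq2).

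Ankrd1, a stretch-responsive ankyrin repeat protein of heart and muscle, was barely expressed. It was at 0.329, 0.321 and 0.291 CPM in CTR KD and at 0.593, 0.319 and 0.317 CPM in YAP KD. It was at 0.290, 0.552 and 0.512 CPM in CTR OE and at 0.581, 0.503 and 0.748 CPM in YAP OE. A single YAP KD library stood above the others, and the groups overlapped in both experiments. The 95% interval of the fold change, 0.797 to 2.07 after knockdown and 0.928 to 2.03 after overexpression, reached from below 1 to just above 2. Without YAP KD replicate 1 the log2 fold change after knockdown moved from 0.36 to 0.02, and that after overexpression moved from 0.46 to 0.22 without CTR OE replicate 1 and to 0.27 without YAP OE replicate 3.

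**Figure D3:**
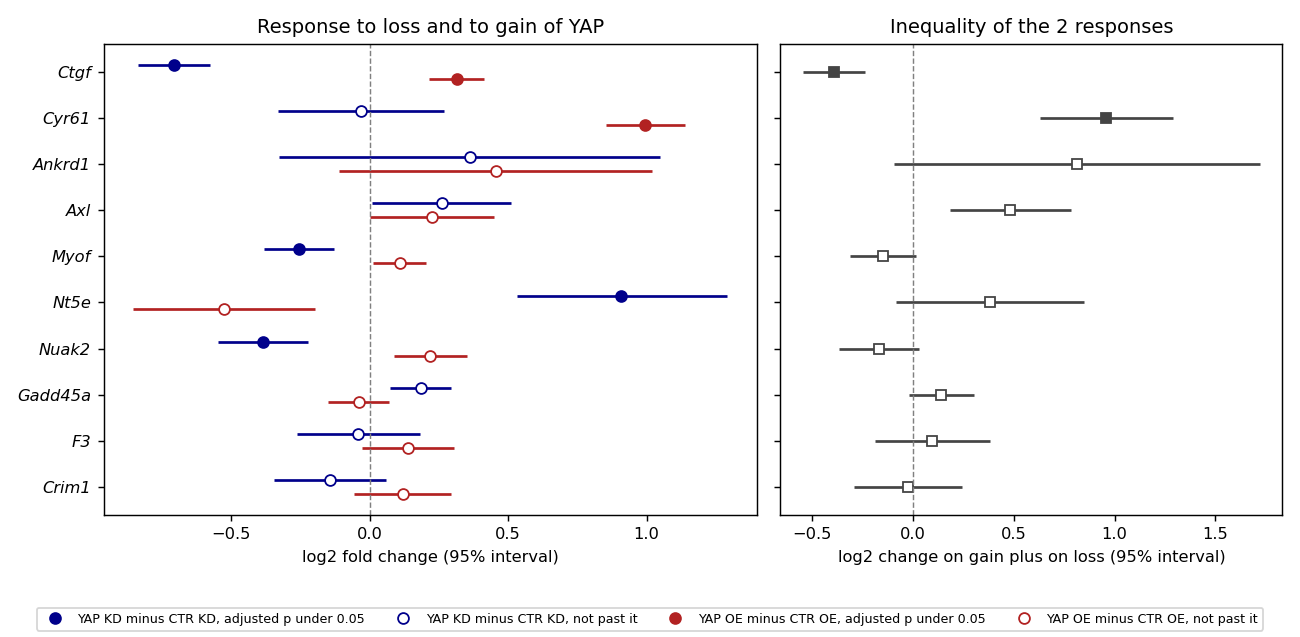
Left, log2 fold change of each target gene on loss (blue) and on gain (red) of YAP with 95% intervals. Filled points passed an adjusted p of 0.05. Right, the sum of the log2 changes on gain and on loss with its 95% interval, which is 0 where the responses are equal in size and opposite in sign. Ctgf lies below 0 and Cyr61 above 0, and the other 8 genes did not pass.

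To compare the sizes of the responses, the log2 change on gain and the log2 change on loss were added in 1 contrast over all 12 libraries. It passed for 2 of the 10 targets, against 1.22% of 15049 genes. For Ctgf the sum was -0.39 (SE 0.0716, edgeR quasi-likelihood, adjusted p = 0.0107), so that loss moved it more than gain. For Cyr61 it was 0.96 (SE 0.156, edgeR quasi-likelihood, adjusted p = 0.00539), so that gain moved it more than loss. The 2 CCN genes therefore departed from a mirror image in opposite directions. Over the 12 fits with 1 library left out, the sum stayed between -0.43 and -0.35 for Ctgf and between 0.81 and 1.08 for Cyr61, and passed each time. For Yap1 itself the sum was -0.18 (SE 0.0774, edgeR quasi-likelihood, unadjusted p = 0.0336, adjusted p = 0.38). The log2 fold change of Yap1 counts was -1.14 on loss and 0.966 on gain, so its sum had the same sign as that of Ctgf. The value on gain includes reads of the plasmid's coding sequence, so it and the value on loss are not like measures of transcript number. Whether this difference in Yap1 bears on the sum of Ctgf was not tested. Among the targets that did not pass, Axl had a sum of 0.48 (SE 0.141, edgeR quasi-likelihood, adjusted p = 0.143).

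The control groups of the experiments, which differ in the agent transfected, were not alike for every target. Axl was higher in CTR OE than in CTR KD by a log2 difference of 0.44 (SE 0.102, edgeR quasi-likelihood, adjusted p = 0.0461), the only 1 of the 10 to pass, against 1.33% of 15049 genes. The call is marginal, since leaving out any library other than YAP KD replicate 1 ended it, with differences from 0.39 to 0.49 over all such fits. Nt5e and Cyr61 had differences of 0.60 (SE 0.156) and 0.39 (SE 0.112) that did not pass (edgeR quasi-likelihood, adjusted p = 0.0856 and 0.127). Ctgf differed by 0.04 (SE 0.0497). Experiment and transfected agent cannot be told apart in this comparison.

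**Figure D4:**
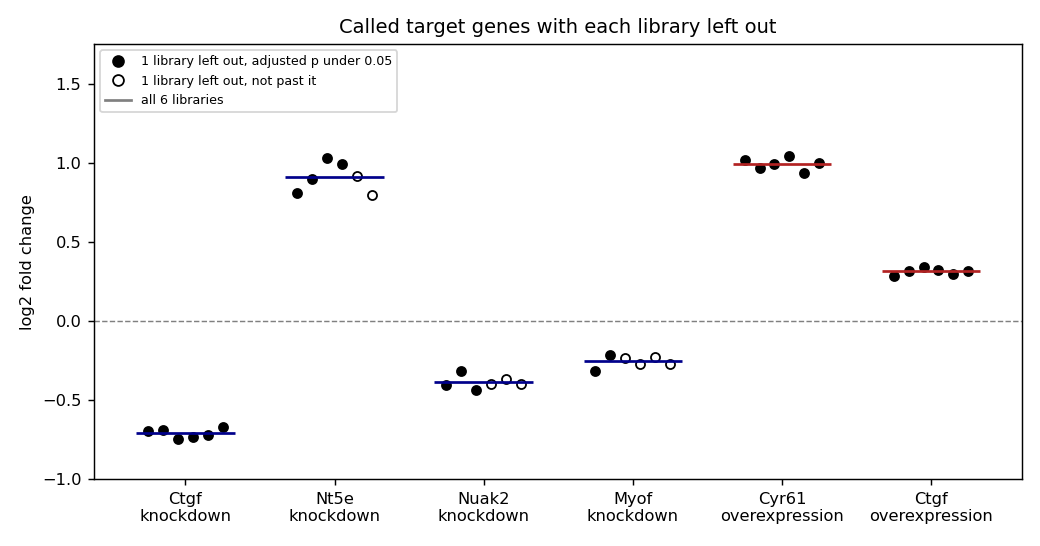
Log2 fold change of each target gene that passed, with each of the 6 libraries of its experiment left out in turn (points), beside the value with all 6 (line). Filled points passed an adjusted p of 0.05. Ctgf and Cyr61 passed throughout, whereas Nt5e, Nuak2 and Myof lost their call in 2, 3 and 4 of the 6 fits.

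Of the 12 other genes of the same signature, 9 were abundant enough to be tested, and Foxf2, Ccdc80 and Rbms3 were not. In the knockdown 2 of the 9 fell, Amotl2 (-0.74, SE 0.0581) and Ptpn14 (-0.38, SE 0.0692), against 2.78% of all genes. In the overexpression 3 of the 9 rose, Lats2 (0.43, SE 0.0803), Amotl2 (0.35, SE 0.04) and Ptpn14 (0.29, SE 0.0452), against 1.66% of all genes. These genes encode regulators that restrain YAP. Their values were taken in the same fits as those of the 10 targets. Amotl2, like Ctgf, moved more on loss than on gain, with a sum of -0.40 (SE 0.0723, edgeR quasi-likelihood, adjusted p = 0.0109).

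Among the genes of the pathway, 4 of 15 Hippo components fell in the knockdown, against 2.78% of all genes. In the overexpression 5 of 15 rose, against 1.66%. These counts include Amotl2 and Ptpn14 and, in the overexpression, Lats2, which were already counted in the signature. Besides the genes just named, Wwc2 (-0.46 and 0.23) and Frmd6 (-0.31 and 0.25), upstream activators of LATS kinases, passed in both. Of 8 tested genes for YAP, TAZ, TEAD factors and VGLL cofactors, 1 fell in the knockdown, Yap1, against 2.78% of all genes. Tead2, the TEAD gene with the highest control level per kb, rose (0.21, SE 0.0419, edgeR quasi-likelihood, adjusted p = 0.0211). It was 1 of 8, against 2.71% of all genes. In the overexpression 1 of 8 rose, Yap1, against 1.66%. Wwtr1, which encodes the YAP relative TAZ, averaged 25.0 CPM in CTR KD against 26.6 CPM in YAP KD, and its log2 fold change of 0.09 (SE 0.0503) did not pass. Several of the 10 targets also respond to other factors in differentiated cells. Of 9 tested immediate-early genes, Atf3 (0.62) and Ier3 (0.52) rose in the overexpression (1 of 9 with DESeq2), against 1.66% of all genes. In the knockdown 0 passed, against 5.49% of all genes (3 at an unadjusted p under 0.05, and 0 with DESeq2). Of 9 tested targets of SRF and MRTF, a pathway that shares Ctgf, Cyr61 and Ankrd1 with YAP, 0 passed in either experiment. Over all genes 5.49% passed in the knockdown and 2.13% in the overexpression. At an unadjusted p under 0.05 there were 2 in each, and with DESeq2 0 and 1.

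Some trophoblast markers rose in the overexpression, 4 of the 6 tested beside 1.66% of all genes. The 6 include genes that entered the test through their YAP OE counts, so the count cannot be weighed against that share. They were Cdx2 (2.05, SE 0.303), Gata3 (1.84, SE 0.251), Krt18 (0.53, SE 0.0736) and Krt8 (0.37, SE 0.0562). Cdx2 and Gata3 rested on few counts, 4 to 34 and 7 to 57 per library. Neither was abundant enough to be tested in the knockdown. Cdx2 averaged 0.149 CPM in CTR OE and 0.628 CPM in YAP OE, so it passed the count filter through the YAP OE libraries. Hand1, which did not pass the test, averaged 0.165 CPM in CTR OE and 0.377 CPM in YAP OE. It too was tested in the overexpression alone. The 8 listed markers summed to 101 to 112 CPM in CTR OE and to 126 to 158 CPM in YAP OE. Most of these sums came from Krt8 and Krt18, which averaged 54.7 and 43.7 CPM in CTR OE. In YAP OE these keratins averaged 70.3 and 63.1 CPM. Both were also higher in CTR OE than in CTR KD, by log2 differences of 0.67 (SE 0.0616) and 0.59 (SE 0.0795). Elf5 was at 0.0769 CPM in CTR OE and 0.066 CPM in YAP OE. In the knockdown the sum was 62.6 to 71.6 CPM in CTR KD, against 80.8 to 81.5 CPM in YAP KD. Here 1 of 4 tested markers, Krt8, rose (0.37, SE 0.0518), against 2.71% of all genes. Of the primitive endoderm markers, Dab2 rose in the overexpression (0.63, SE 0.111), 1 of 8 tested against 1.66% of all genes. In the knockdown 0 of 7 passed, against 5.49% of all genes (1 at an unadjusted p under 0.05, and 0 with DESeq2). Whether cells of these lineages were present, and their part in the rise of Ctgf and Cyr61, was not tested.

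For each target that passed, the genes with the most similar profile over the 12 libraries were listed, as the Pearson correlation of log2 CPM after subtraction of the control mean of each experiment among 14521 genes. These correlations describe libraries that share the same treatment. The genes were picked by this likeness, so their similar changes follow from the choice and are no separate finding. Ctgf was closest to Wls, Fstl1 and Tek, each with r = 0.99. All these genes fell in the knockdown (Wls -0.75, Fstl1 -0.32, Tek -0.85) and rose in the overexpression (0.41, 0.19 and 0.38). Cyr61 was closest to Podxl (r = 0.973), Plin2 (r = 0.967) and Tagln2 (r = 0.959). Picked in this way, they passed in the overexpression and not in the knockdown, with log2 fold changes of 0.29, 0.30 and 0.23 on gain. Nuak2 was closest to Amotl2 (r = 0.983), Tm7sf3 (r = 0.981) and Slc12a4 (r = 0.979). Myof was closest to Slc7a1 (r = 0.972), Tmem62 (r = 0.962) and Sh3d19 (r = 0.959). Nt5e was closest to St6galnac2 (r = 0.988), Dtx3l (r = 0.982) and AW551984 (r = 0.978), which rose in the knockdown by 0.43, 0.32 and 0.51.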

How the data were processed

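RNA from 12 ESC libraries (4 groups of 3, from independent experiments per the labels) was compared within each experiment. Reads had been mapped by the authors with STAR to mm10 and assigned to RefSeq genes with RSEM (versions and strand setting not given in the sources used here). The deposited tables give expected counts, gene lengths, TPM and FPKM, and of these the expected counts, which are not normalized, and effective lengths were used. The deposited TPM and FPKM values entered no test. RSEM divides reads among genes that share sequence, and without a strand setting reads of overlapping antisense genes cannot be told apart.

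Expected counts were rounded and fitted per experiment (6 libraries) with edgeR 4.0.16 in R 4.3.3, using filterByExpr, TMM factors and the two-sided quasi-likelihood F test. P-values were adjusted by the Benjamini-Hochberg method over all genes tested, with a threshold of 0.05. CPM values use TMM factors over 12 libraries. The sum of the responses and the comparison of controls were contrasts in a fit over 12 libraries. Fits of each experiment and of the sum, but not of the comparison of controls, were also run on simulated counts with known changes. Those counts held no replicate structure, and the outcome is not given here. Named were the 10 targets, Yap1, listed genes that passed or that are relatives or partners of a target, and the 3 closest profiles (log2 CPM with a pseudocount of 0.5) of each target that passed. Klf4, Dppa5a, Lum, Elf5, Hand1, Wwtr1 and the untested signature genes were named after their values were seen. The targets and lists were chosen with earlier results of these data known. Alternatives were other scaling factors, other count filters, DESeq2 1.42.0, limma-voom (limma 3.58.1), the edgeR exact test, 1 fit over 12 libraries, the replicate number as a block, and each library left out. Depth was 42900000 to 57200000 expected counts, which makes genes with few counts such as Ankrd1 imprecise. Promoter sequences are from RefSeq (GRCm38.p6), and gene positions refer to the same build.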

Additional observations from a re-analysis of the deposited data

Results flagged for a closer look

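The responses of 2 target genes to loss and to gain of YAP differed in size by a direct test, a contrast that added both log2 changes over 12 libraries. For Ctgf the sum was -0.39 (SE 0.0716, edgeR quasi-likelihood, adjusted p = 0.0107). Its log2 fold change was -0.71 on loss, in 3 of 3 YAP KD libraries below all controls, and 0.32 on gain, in 3 of 3 YAP OE libraries above all controls. For Cyr61 the sum was 0.96 (SE 0.156, edgeR quasi-likelihood, adjusted p = 0.00539). Its log2 fold change was 1.00 on gain, in 3 of 3 YAP OE libraries above all controls, and -0.03 on loss, where the groups overlapped. The groups of 3 were too small for a search for single outlying libraries.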

How the results depend on the processing

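Neither scaling factors nor count filters changed a call among the 10 targets in either experiment, except that Ankrd1, which never passed, was not tested at a minimum of 1 CPM in 3 libraries. The test called 4 targets on knockdown and 2 on overexpression. With the edgeR exact test, which called 1184 in place of 802 of all genes on knockdown and 518 in place of 316 on overexpression, it was 5 and 4, as Gadd45a passed in the knockdown (adjusted p = 0.0301) and Nuak2 and Nt5e in the overexpression (adjusted p = 0.0394 and 0.0436). With 1 library left out it ranged from 1 to 4 in the knockdown, in fits with fewer samples, and remained 2 in the overexpression. The count of targets with unequal responses was 2 under every alternative. The count of targets differing between controls was 1, but 0 with limma-voom (Axl 0.44, adjusted p = 0.0553) and 0 to 1 with 1 library left out. With DESeq2, and without CTR KD replicate 2, it was again 1, with Cyr61 in place of Axl, and the cause was not tested.

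Same-numbered libraries had correlated deviations of -0.261, -0.104 and -0.0135 in the knockdown and 0.0185, 0.0463 and 0.0422 in the overexpression. The main fits used no pairing by number, and these correlations cannot settle whether same-numbered libraries shared an experiment. With the number as a replicate block, the calls fell to 2 in the knockdown, where Myof (-0.25, adjusted p = 0.134) and Nuak2 (-0.38, adjusted p = 0.0866) no longer passed, 2 in the overexpression and 0 between controls. Over all genes the block gave 193 in place of 802 calls in the knockdown and 280 in place of 316 in the overexpression. In the overexpression, but not in the knockdown, each library correlated best with its own number. Over all genes, calls also moved to 1261 in 1 fit over 12 libraries (knockdown), to 556 with any gene counted (overexpression), and to 298 to 1019 and 154 to 327 with 1 library left out.

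Signs turned only for values that never passed, when 1 library was left out. For Cyr61 in the knockdown the range was -0.187 to 0.0901, with 0.0126 and 0.00797 without CTR KD replicate 3 and YAP KD replicate 3. For F3 in the knockdown it was -0.119 to 0.0548, highest without CTR KD replicate 3. For Gadd45a in the overexpression it was -0.0887 to 0.00508, highest without CTR OE replicate 1 and 0.00477 without YAP OE replicate 1. The spread of Cyr61 in CTR KD and the few counts of Ankrd1, Nt5e and Axl limit what these 3 libraries per group can show.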
